A study of Mus musculus and Homo sapiens with 20 samples.

Results

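Histone marks were described over 10 genes that write, remove or guide DNA methylation: Tet1, Tet2, Tet3, Cxxc4, Tdg, Dnmt3a, Dnmt3b, Dnmt3l, Dnmt1 and Uhrf1. The genes were chosen by symbol for what their proteins do, and all 10 were found among 21938 protein-coding genes of the mouse annotation and, in upper case, among 20033 of the human annotation. For each gene, the share of bases under a CUT&Tag peak was measured over the gene span and over the promoter, taken here as 1 kb on each side of the annotated gene start. CUT&Tag cuts and tags DNA next to an antibody-bound histone mark. H2AK119ub (ubiquitin on a lysine of histone H2A) and H3K27me3 (trimethyl on a lysine of histone H3) were mapped, with and without Tet2, in stem cells of the mouse embryo (mES cells) and haematopoietic stem and progenitor cells (HSPCs), and H2AK119ub was mapped in K562 cells, a human leukaemia line, after siControl or siMBD6. Each of the 10 groups held 2 libraries. The WT and Tet2-/- mES cells were established lines grown with LIF and inhibitors of GSK3 and MEK, so genotype and line cannot be told apart. The HSPCs were Lin- c-Kit+ bone marrow cells of WT C57BL/6 and backcrossed Tet2-/- mice aged 6 to 8 weeks, and the number of mice behind a library was not given in the sources used here. The medium listed for K562 cells in the labels held puromycin, for both K562 groups. In K562 cells MBD6, a methyl-CpG-binding-domain protein, was lowered by siRNA. Nothing in the labels says that the 2 libraries of a group came from separate cultures or animals, so the spread between them may be technical.

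Cytosine methylation in mammals is set down by the de novo enzymes DNMT3A and DNMT3B with the catalytically inactive partner DNMT3L, and is copied after replication by DNMT1, which UHRF1 brings to newly replicated DNA. The TET enzymes oxidise 5-methylcytosine, and TDG excises some of the oxidised bases so that repair restores cytosine; CXXC4 is a CpG-binding protein that partners TET2. H2AK119ub is written by Polycomb repressive complex 1 and H3K27me3 by Polycomb repressive complex 2. TET2 and DNMT3A are among the genes most often mutated in clonal haematopoiesis, whereas DNMT3B and DNMT3L are best known from early embryos, germ cells and mES cells.

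A set of 5 promoter sequences carries the contrasts described next, namely a promoter under both marks in HSPCs (Tet1), a promoter under H2AK119ub in KO HSPCs (Tet2), a promoter under H3K27me3 in every mouse list (Cxxc4), a promoter left open by the peaks on each side of it (Dnmt3a) and a promoter under H3K27me3 in mES cells only among the mouse lists (Dnmt3l). Each is the 250 bases before a RefSeq start in GRCm38.p6, the same coordinates as mm10, written 5′ to 3′ with every CpG in capitals; the 5 were picked after the peaks were seen.
Tet1, chr10:62887325-62887574, minus strand: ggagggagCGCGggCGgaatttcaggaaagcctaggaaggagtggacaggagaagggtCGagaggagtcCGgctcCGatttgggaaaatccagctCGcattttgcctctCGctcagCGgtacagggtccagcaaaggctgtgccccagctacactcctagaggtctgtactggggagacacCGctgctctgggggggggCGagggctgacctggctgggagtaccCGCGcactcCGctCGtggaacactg
Tet2, chr3:133544391-133544640, minus strand: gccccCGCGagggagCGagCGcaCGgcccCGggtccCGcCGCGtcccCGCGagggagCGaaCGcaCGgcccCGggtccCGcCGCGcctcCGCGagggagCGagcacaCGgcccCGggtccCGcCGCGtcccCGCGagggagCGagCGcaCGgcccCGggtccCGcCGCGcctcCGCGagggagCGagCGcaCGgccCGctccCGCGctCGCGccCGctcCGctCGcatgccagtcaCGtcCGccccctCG
Cxxc4, chr3:134236245-134236494, plus strand: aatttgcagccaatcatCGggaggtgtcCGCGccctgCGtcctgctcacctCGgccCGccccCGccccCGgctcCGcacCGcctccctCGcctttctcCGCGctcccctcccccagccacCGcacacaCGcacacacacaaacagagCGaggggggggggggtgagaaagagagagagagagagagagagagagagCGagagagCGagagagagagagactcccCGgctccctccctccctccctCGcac
Dnmt3a, chr12:3806910-3807159, plus strand: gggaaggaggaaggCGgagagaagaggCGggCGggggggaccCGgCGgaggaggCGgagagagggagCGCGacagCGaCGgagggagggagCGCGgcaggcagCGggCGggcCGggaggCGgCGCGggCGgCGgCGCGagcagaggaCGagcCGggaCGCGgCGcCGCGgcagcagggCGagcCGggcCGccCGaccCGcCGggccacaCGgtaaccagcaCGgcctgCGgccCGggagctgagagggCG
Dnmt3l, chr10:78042037-78042286, plus strand: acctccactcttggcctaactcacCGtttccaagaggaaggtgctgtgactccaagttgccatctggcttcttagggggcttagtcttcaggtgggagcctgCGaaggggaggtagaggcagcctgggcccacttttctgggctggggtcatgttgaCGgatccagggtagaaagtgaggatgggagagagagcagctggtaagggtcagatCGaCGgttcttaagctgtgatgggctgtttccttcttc

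The Tet1 stretch held 15 CpGs. It lay fully under an H2AK119ub peak in all 8 mouse H2AK119ub lists and fully under an H3K27me3 peak in all 4 HSPC lists, and no base of it lay under an H3K27me3 peak in the 4 mES lists. The Tet2 stretch held 51 CpGs, a number reached by 0.067% of 32851 RefSeq promoters, and 83.6% of its bases were G or C. Both KO HSPC H2AK119ub lists covered it fully, and the other 14 mouse lists left it uncovered. The Cxxc4 stretch held 20 CpGs and was fully covered in all 8 H3K27me3 lists, but in only 1 of 8 H2AK119ub lists, a KO HSPC library. The Dnmt3a stretch held 40 CpGs and had no covered base in any of the 16 mouse lists. The Dnmt3l stretch held 5 CpGs. It was fully covered by H2AK119ub in all 8 lists, by H3K27me3 in 52.4% to 100% of its bases in the 4 mES lists, and not at all by H3K27me3 in HSPCs. Another RefSeq stretch of Dnmt3l, chr10:78055085-78055334, gave the other order. H3K27me3 covered 95.6% and 67.2% of that stretch in WT HSPCs, and none of it in KO HSPCs or mES cells.

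The lists held 85098 to 167326 peaks on assembled chromosomes, spanning 132 to 260 Mb. The commonest peak width was 501 bp, which fills 25% of a promoter window, so a value of 25% usually stands for a single smallest peak. The lists give no read counts, so depth is unknown and a longer list cannot be told apart from a deeper library. The paper scaled its CUT&Tag signal with Drosophila spike-in chromatin and reported H2AK119ub loss after Tet2 KO in HSPCs. Such scaling cannot be applied to peak positions, so percent covered is not an amount of the mark. Replicate lists were distinct, with 16 to 69 identical peaks in a pair. Labelled cell types were set against their markers: of 5 mES genes (Pou5f1, Nanog, Sox2, Zfp42 and Esrrb), 1 to 2 had an H3K27me3 promoter peak in the mES lists and 4 had one in every HSPC list. H2AK119ub gave the other order, with a peak at all 5 in every mES list and at 3 to 4 in the HSPC lists. Of 5 HSPC genes (Kit, Gata2, Runx1, Spi1 and Ptprc), 3 to 4 had an H3K27me3 promoter peak in both cell types, but their median coverage was 40.2% to 64.9% in the mES lists and 9.15% to 28.0% in the HSPC lists. Spi1 was at 100% in all mES lists and at 3.90% to 27.3% in the HSPC lists, and Runx1 at 33.1% to 64.9% and at 0% to 28.0%. Kit leaned the other way with overlap, at 0% to 44.5% in the mES lists and 38.3% to 66.3% in the HSPC lists. H3K27me3 at Gata2 was at 100%, and at Ptprc at 0%, in every list of both cell types. H2AK119ub had a promoter peak at 4 of the 5 HSPC genes in every list of both cell types. Its median coverage of them was 66.2% to 73.5% in the mES lists and 81.0% to 100% in the HSPC lists. For either mark, 6 to 7 of 7 genes of other lineages had a promoter peak in every mouse list. The KO HSPC lists covered 21.7 and 24.3 Mb of the X chromosome with H3K27me3 and the WT lists 1.05 and 1.07 Mb. Mice of both sexes were used in the study and the labels give no sex, so genotype and sex cannot be told apart in the HSPC comparisons, although all 10 genes are autosomal. A deleted exon cannot be seen in peak positions, so the lists do not check the Tet2 genotype. With 2 libraries against 2, the smallest two-sided exact permutation p is 0.333, so "without overlap" below means that both libraries of a group lay above or below both of the other, and it is not a passed test.

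**Figure D1:**
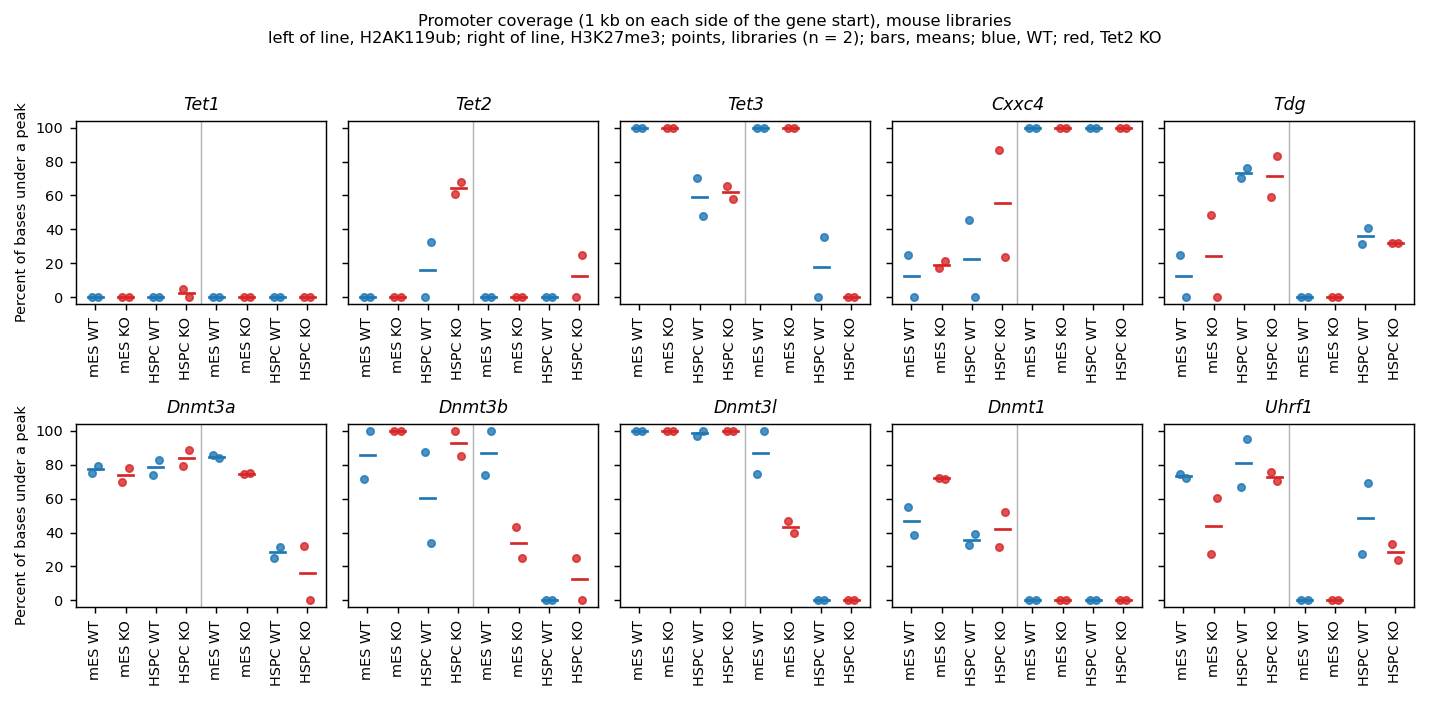
Percent of the promoter window (1 kb on each side of the gene start) under a peak, by gene, for the 4 H2AK119ub groups (left of the line) and the 4 H3K27me3 groups (right); points are libraries (n = 2 a group), bars are means, blue is WT and red is Tet2 KO. Cxxc4 stands at 100% for H3K27me3 in all 8 libraries, Tet3 at 100% for both marks in mES cells, and Tet2 at 61.0% and 68.1% in the KO HSPC H2AK119ub libraries.

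Tet1 (chr10:62804570-62908996, minus strand) encodes an oxidase that is abundant in mES cells. Its outermost annotated start held almost no peak, with 0% of the promoter covered in 15 mouse libraries and 4.65% in KO HSPC H2AK119ub replicate 1. The annotation lists 6 protein-coding starts more than 1 kb apart. Peaks were found at the fourth, 21484 bases downstream of the gene start at position 62887512, and the other starts are not described. At that start H2AK119ub covered 57.9% and 58.1% of the window in WT mES cells and 55.7% and 62.8% in KO. The HSPC values were 63.0% and 56.1% in WT and 60.1% and 56.2% in KO, so all 8 libraries fell between 55.7% and 63.0%. H3K27me3 was at 0% there in all 4 mES libraries and covered 59.5% and 71.4% in WT HSPCs and 55.9% and 59.5% in KO HSPCs. The cell types did not overlap for H3K27me3 and the genotypes did. The H3K27me3 span coverage of Tet1 in HSPCs was 2.75% and 2.73% in WT and 1.62% and 1.92% in KO, lower in KO without overlap. H2AK119ub span coverage averaged 2.31% in mES cells and 7.96% in HSPCs, without overlap, so covered bases also lay outside the fourth window.

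Tet2 (chr3:133463679-133545139, minus strand), the gene deleted in the KO cells, had more of its promoter under H2AK119ub peaks in KO than in WT HSPCs. H2AK119ub covered 0% and 32.6% of its promoter in WT HSPCs and 61.0% and 68.1% in KO HSPCs, a mean of 16.3% ± 23.1 (SD, n = 2) against 64.5% ± 5.05. Both KO libraries lay above both WT libraries. The mean difference of 48.2 points was 64.5 points without WT replicate 2 and 31.9 without WT replicate 1, and with peaks within 1 kb of each other joined it was 28.6 points and the groups overlapped. Over the whole 81461-base span the mark covered 0.615% and 1.15% in WT and 2.10% and 2.36% in KO, so the peaks sat at the start. Flanks beginning 100 kb from the gene and reaching 1 Mb on each side were covered for 1.18% and 0.525% in WT and 1.19% and 0.971% in KO, which overlapped. Among all protein-coding genes, 18.8% had higher H2AK119ub promoter coverage in KO HSPCs without overlap, and the median promoter coverage was 45.4% and 34.6% in the WT libraries and 52.4% and 53.0% in the KO libraries. The part of that general difference in the Tet2 value was not tested, and an effect of losing the protein cannot be told apart from one of the altered allele itself. In mES cells the Tet2 promoter was at 0% for both marks in all 8 libraries. H3K27me3 in HSPCs was at 0% in 3 libraries and at 25% in KO replicate 2.

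**Figure D2:**
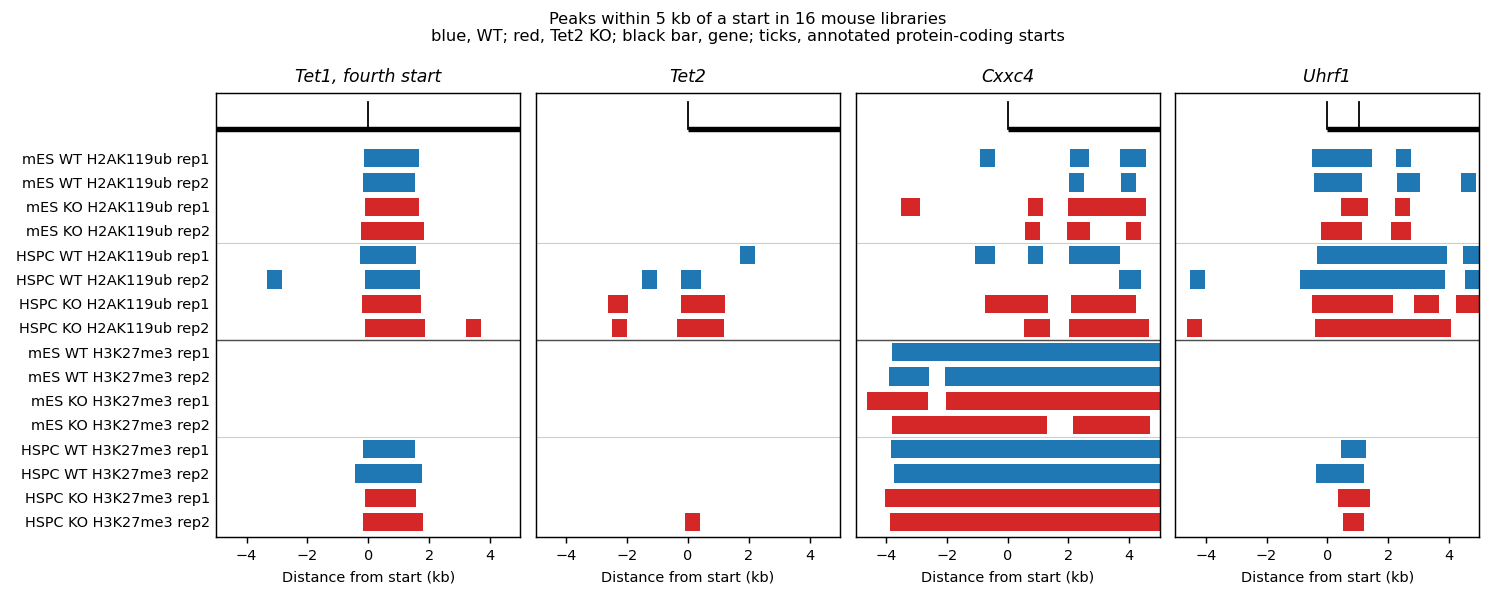
Peaks in 16 mouse libraries within 5 kb of the fourth Tet1 start and of the Tet2, Cxxc4 and Uhrf1 gene starts, with distance from the start in kb along transcription on the x axis; each row is a library, blue WT and red Tet2 KO, with the gene as a black bar and annotated starts as ticks. H3K27me3 at Tet1 and Uhrf1 is present in the 4 HSPC rows and in none of the 4 mES rows, whereas Cxxc4 carries wide H3K27me3 peaks in all 8.

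Tet3 (chr6:83362373-83459084, minus strand) encodes the TET oxidase known from oocytes, the zygote and neurons. In mES cells it lay almost wholly under both marks. H2AK119ub covered 92.9% and 90.6% of its span in WT mES cells and 80.8% and 77.5% in KO. The H3K27me3 values were 93.8% and 94.9% for WT, against 83.3% and 74.7% for KO. The promoter was at 100% for both marks in all 8 mES libraries, as was the third annotated start, 17409 bases downstream. Both marks were thus lower over the span in KO without overlap, and at the start, where coverage was complete, no difference could be seen.

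The H3K27me3 domain over Tet3 was among the widest in the mES lists. In WT the widest peak on the gene measured 72737 bp and ranked 3 of 109577 in replicate 1, and measured 84119 bp and ranked 6 of 120459 in replicate 2. In KO the widest peak measured 60624 bp, rank 11, and 38317 bp, rank 15. Tet3 was the only protein-coding gene under each of these 4 peaks. The flanks of the gene, from 100 kb out to 1 Mb further on each side, were lower too: H2AK119ub covered 45.1% and 43.7% of them in WT mES cells and 33.3% and 31.0% in KO, and H3K27me3 31.2% and 36.6% against 27.2% and 18.9%. The share of the difference over Tet3 that belongs to its surroundings was not tested. In HSPCs the domain was absent from the lists: H3K27me3 covered 2.28% and 3.55% of the span in WT and 2.21% and 1.04% in KO, with a widest peak of 501 to 1058 bp. H2AK119ub remained in pieces, over 23.4% and 26.4% of the span in WT and 22.3% and 19.4% in KO, against a median of 5.59% to 8.44% for all genes. KO HSPCs were lower without overlap for both marks, but the HSPC H3K27me3 groups overlapped with only peaks of at least 1 kb and the HSPC H2AK119ub groups with peaks within 1 kb joined. Over the 8 libraries of a mark, with genotype permuted within cell type, the mean difference was -8.35 percentage points for H2AK119ub (exact p = 0.0556, the smallest that 36 arrangements allow; adjusted p over all genes 1.00) and -8.33 points for H3K27me3 (exact p = 0.0556, adjusted p = 0.761).

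**Figure D3:**
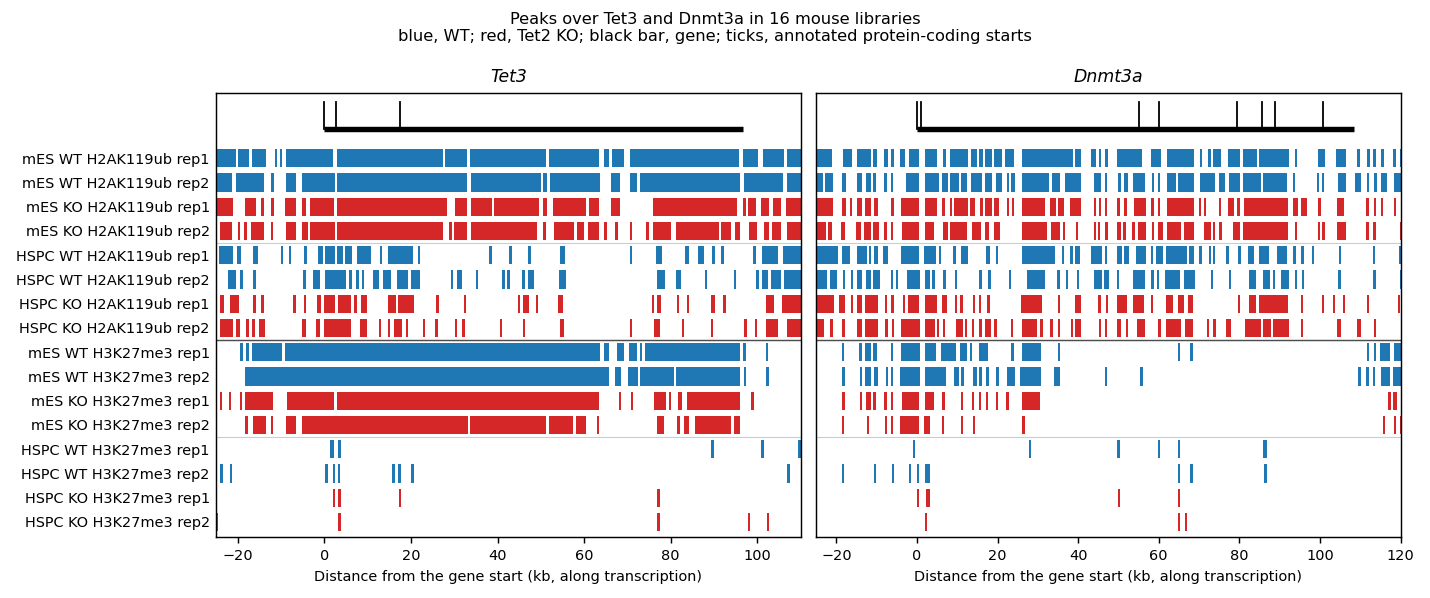
Peaks over Tet3 and Dnmt3a in 16 mouse libraries, with distance from the gene start in kb along transcription on the x axis; each row is a library, blue WT and red Tet2 KO. The 8 mES rows are nearly filled over Tet3 (74.7% to 94.9% of the span) and the 4 HSPC H3K27me3 rows nearly empty (1.04% to 3.55%); over Dnmt3a, H2AK119ub runs along the gene and H3K27me3 keeps to its first part in mES cells.

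Cxxc4 (chr3:134236484-134262161, plus strand) was marked by H3K27me3 far more than by H2AK119ub. H3K27me3 covered 100% of its promoter in all 8 mouse libraries and between 40.2% and 55.7% of its span. The widest H3K27me3 peak ran from 5077 to 18163 bp. H2AK119ub covered 25% and 0% of the promoter in WT mES cells, 17.0% and 21.4% in KO mES cells, 45.5% and 0% in WT HSPCs and 87.0% and 23.6% in KO HSPCs. H2AK119ub was below H3K27me3 in every library of both cell types. Over the span, H2AK119ub was higher in KO without overlap in both cell types, with 7.71% and 5.85% against 15.8% and 8.81% in mES cells and 10.4% and 2.91% against 19.0% and 19.4% in HSPCs. The pooled difference was 9.04 points (exact p = 0.0556, adjusted p = 1.00). Little else in the neighbourhood was marked: the flanks were covered for 0.920% to 1.39% by H2AK119ub and 0.494% to 3.51% by H3K27me3.

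Tdg (chr10:82629828-82650799, plus strand), the glycosylase gene, was marked in HSPCs more than in mES cells. H2AK119ub covered 25% and 0% of the promoter in WT mES cells and 48.7% and 0% in KO, against 70.3% and 76.2% in WT HSPCs and 59.3% and 83.4% in KO HSPCs. H3K27me3 was at 0% in all 4 mES libraries and covered 31.6%, 40.9%, 31.7% and 32.1% in the 4 HSPC libraries. The cell types did not overlap for either mark and the genotypes overlapped in both cell types. The HSPC H3K27me3 peaks were short, 633 to 819 bp, in lists in which 58.4% to 61.6% of all protein-coding promoters held some peak.

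Dnmt3a (chr12:3806007-3914443, plus strand), the de novo enzyme gene, was under H2AK119ub along much of its length. In mES cells 65.9% and 60.3% of the span was covered in WT and 54.7% and 51.8% in KO, lower in KO without overlap. H3K27me3 covered 17.5% and 19.3% in WT mES cells and 10.7% and 3.79% in KO, again lower without overlap, and its promoter 85.5% and 84.1% against 74.2% and 75.3%. The flanks did not share that order: H2AK119ub covered 5.19% and 5.37% of them in WT mES cells and 6.41% and 5.58% in KO, and H3K27me3 3.54% and 4.61% against 3.71% and 2.55%. In HSPCs H2AK119ub covered 43.3% and 32.4% of the span in WT and 34.9% and 39.8% in KO, which overlapped. H3K27me3 in HSPCs covered 2.83% and 3.57% in WT and 2.36% and 1.39% in KO. Over both cell types the pooled H3K27me3 difference was -6.22 points (exact p = 0.0556, adjusted p = 0.761).

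Within Dnmt3a the marks differed between its starts. The start at 1023 bases from the gene start holds 259 CpGs in its window, more than 99.9% of all protein-coding gene starts. H2AK119ub covered 18.9% to 40.3% of that window and H3K27me3 0% to 36.5%, and none of it reached the 250 bases printed above. The start at 85721 bases was covered by H2AK119ub over 67.9% to 100% of its window in the mES libraries and 41.6% to 95.1% in the HSPC libraries. H3K27me3 there was at 0% in all mES libraries and in both KO HSPC libraries, and at 36% and 34.0% in WT HSPCs.

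Dnmt3b (chr2:153649450-153687730, plus strand), the other de novo enzyme gene, had lower H3K27me3 coverage in KO mES cells. Its promoter was covered for 73.8% and 100% in WT and 43.1% and 25% in KO, a mean difference of -52.8 points. The span, of which only the start was marked, was at 2.41% and 4.09% in WT and 0% in both KO libraries. H2AK119ub at the promoter was 71.3% and 100% in WT mES cells and 100% in both KO libraries, so it did not share the order of H3K27me3. In HSPCs H3K27me3 was at 0% in 3 libraries and 25% in KO replicate 1, and H2AK119ub stood at 87.2% and 34.0% in WT and 100% and 85.4% in KO. Over the span H2AK119ub was lower in KO HSPCs without overlap, with 19.5% and 21.4% against 17.2% and 11.6%.

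Dnmt3l (chr10:78041947-78063622, plus strand) gave the same order as Dnmt3b in mES cells. H3K27me3 covered 74.6% and 99.6% of the promoter in WT and 46.6% and 39.6% in KO, a mean difference of -44.0 points, and 0% in all 4 HSPC libraries. H2AK119ub was between 97.0% and 100% in all 8 libraries. The window of Dnmt3l overlaps the gene Aire, so the peak cannot be given to either gene alone. Over the later RefSeq stretch of Dnmt3l given above, H3K27me3 lay in both WT HSPC lists and in no mES list. Over the span, H3K27me3 was 8.95% and 9.07% in WT mES cells against 8.78% and 7.62% in KO, and 6.93% and 4.62% in WT HSPCs against 0% and 2.31% in KO. Both pairs were lower in KO without overlap, with a pooled difference of -2.71 points (exact p = 0.0556, adjusted p = 0.761).

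Dnmt1 (chr9:20907209-20959888, minus strand), the maintenance enzyme gene, had no H3K27me3 at its gene start in any mouse library. H2AK119ub there covered 55.3% and 38.4% in WT mES cells and 72.1% and 71.7% in KO, higher in KO without overlap. The second start, 6909 bases downstream, did not share that order, with 40.0% and 65.9% in WT and 38.4% and 46.5% in KO. At this second start HSPCs were the higher cell type for H2AK119ub, at 83.4%, 84.4%, 92.9% and 82.4% (2 WT, then 2 KO libraries). H3K27me3 there was at 31.3%, 39.6%, 25% and 45.6% in HSPCs, in the same order, against 0% to 25% in mES cells. For H3K27me3 the lowest HSPC library and the highest mES library were thus equal. At the gene start H2AK119ub leaned the other way, with means of 59.4% in mES cells and 38.9% in HSPCs, and the cell types overlapped. Over the span H2AK119ub covered 21.9% to 30.8% in the HSPC libraries, against 4.93% to 9.93% in the mES libraries.

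Uhrf1 (chr17:56303321-56323486, plus strand), whose product binds hemimethylated DNA, was covered by H2AK119ub more widely in HSPCs than in mES cells. H2AK119ub covered 15.5% and 14.4% of its span in WT mES cells and 6.92% and 8.95% in KO, against 64.4% and 55.0% in WT HSPCs and 44.6% and 60.7% in KO HSPCs. The lowest HSPC library lay well above the highest mES library. The flanks differed less, at 29.7% to 34.4% in the HSPC libraries against 25.3% to 27.8% in the mES libraries. The promoter was at 74.6% and 72.4% in WT mES cells and 27.2% and 60.6% in KO, lower in KO without overlap. At an annotated start 992 bases downstream the groups were barely apart, at 73.9% and 57.02% in WT and 44.7% and 56.92% in KO. H3K27me3 at the promoter was at 0% in all 4 mES libraries and at 27.2% and 69.5% in WT HSPCs and 33.3% and 23.6% in KO.

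**Figure D4:**
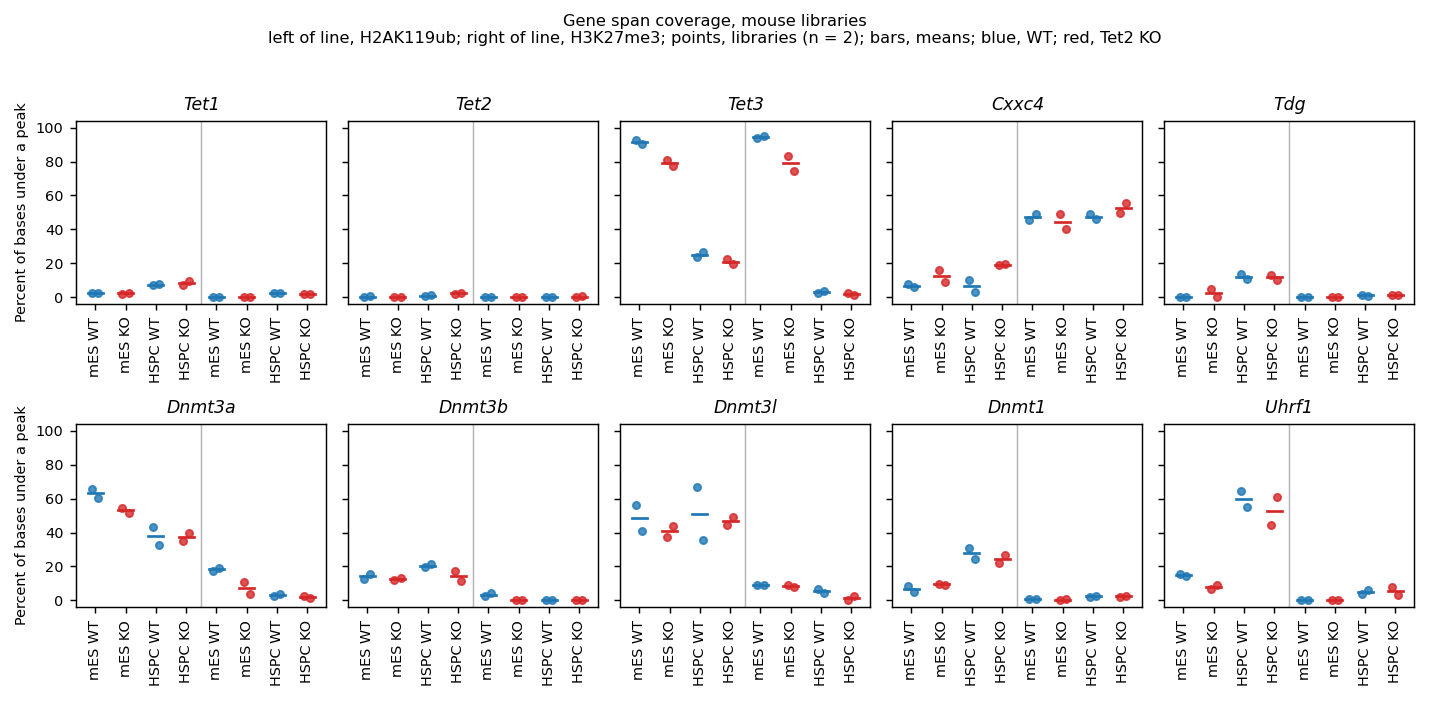
Percent of the gene span under a peak, by gene, for the 4 H2AK119ub groups (left of the line) and the 4 H3K27me3 groups (right); points are libraries (n = 2 a group), bars are means, blue is WT and red is Tet2 KO. Tet3 is high in mES cells for both marks and Uhrf1 high in HSPCs for H2AK119ub (44.6% to 64.4% against 6.92% to 15.5%).

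Counted over the 10 genes, KO and WT mES cells differed without overlap in H3K27me3 in 1 direction. Promoter coverage was lower in KO for 3 genes (Dnmt3a, Dnmt3b and Dnmt3l) and higher for 0, where 16% of all protein-coding genes were lower and 1.90% higher. Of the 11829 genes with a promoter peak in any of these 4 lists, 29.6% were lower. Span coverage was lower for 4 genes, the same 3 and Tet3, and higher for 0, against 21.5% and 5.37% of all genes. The direction was that of genes at large, and the 4 lists covered 189 and 232 Mb in WT and 214 and 149 Mb in KO. For H2AK119ub in mES cells, promoter coverage was higher for 1 gene and lower for 1, against 10.2% and 8.91% of all genes, and span coverage higher for 2 (Dnmt1 and Cxxc4) and lower for 3 (Tet3, Dnmt3a and Uhrf1), against 14.8% and 15.4%.

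In HSPCs, H2AK119ub promoter coverage was higher in KO for 1 gene, Tet2, and lower for 0, against 18.8% and 5.05% of all genes. Span coverage was higher for 2 (Tet2 and Cxxc4) and lower for 2 (Tet3 and Dnmt3b), against 19.0% and 9.40%. H3K27me3 promoter coverage overlapped in all 10 genes, where 9.68% of all genes were higher and 8.79% lower. Span coverage was higher for 1, Cxxc4 (49.0% and 46.1% against 49.6% and 55.7%), and lower for 4 (Tet1, Tet3, Dnmt3a and Dnmt3l), against 14.9% and 18.4%. None of these 5 genes kept separate groups when only peaks of at least 1 kb were used, and the count was then 0. Promoter coverage that kept 1 direction without overlap in both cell types was seen in 0 of 10 genes for either mark, where 2.60% of all genes were higher in KO and 0.688% lower for H2AK119ub, and 0.223% higher and 2.14% lower for H3K27me3. The exact p for the pooled promoter difference ranged from 0.167 to 1.00 over the 10 genes and both marks. For span coverage, H2AK119ub kept 1 direction in Cxxc4 (higher) and Tet3 (lower), against 3.65% and 1.89% of all genes, and H3K27me3 in Tet3, Dnmt3a and Dnmt3l (lower) and in 0 genes higher, against 6.24% and 1.07%.

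Between the cell types, genotype was kept fixed in the tests, and mES cells and HSPCs also differ in origin, culture and list length. H3K27me3 promoter coverage was lower in HSPCs, with no overlap among 8 libraries, for Tet3, Dnmt3a and Dnmt3l and higher for Tdg and Uhrf1, against 8.70% and 22.8% of all genes. The means were 100% in mES cells and 8.82% in HSPCs for Tet3, 79.8% and 22.1% for Dnmt3a, 65.1% and 0% for Dnmt3l, 0% and 34.1% for Tdg and 0% and 38.4% for Uhrf1. Each gave the smallest exact p of 0.0556 and an adjusted p of 0.165 over all genes. Dnmt3b was at 60.5% and 6.26%, but its lowest mES library and its highest HSPC library were equal. For H2AK119ub, Tet3 was lower in HSPCs (100% and 60.5%) and Tdg higher (18.4% and 72.3%), against 8.58% and 15.6% of all genes (exact p = 0.0556, adjusted p = 0.199 for both). At the Tet3 start 17409 bases downstream the cell types overlapped for H2AK119ub. It covered 100% and 86.3% there in WT HSPCs and 72.2% and 80.3% in KO HSPCs, against 100% in every mES library. In span coverage H2AK119ub was higher in HSPCs for 4 genes (Tet1, Dnmt1, Uhrf1 and Tdg) and lower for 2 (Tet3 and Dnmt3a), against 20.9% and 20.5% of all genes. H3K27me3 span coverage was higher for 4, the same genes by name, and lower for 3 (Tet3, Dnmt3a and Dnmt3l), against 27.1% and 17.3%. The protein-coding gene Glt8d2 overlaps the Tdg span, so peaks in the shared part cannot be given to either gene alone.

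Between the marks, H2AK119ub promoter coverage in mES cells was above H3K27me3 in all 8 libraries for Dnmt1, Dnmt3l and Uhrf1 and below it for Cxxc4, against 26.4% and 5.70% of all genes. In HSPCs it was above for 6 genes (Tet3, Dnmt1, Dnmt3a, Dnmt3b, Dnmt3l and Tdg) and below for Cxxc4, against 24.1% and 9.87%. Cxxc4 was the only gene of the 10 with higher H3K27me3 than H2AK119ub promoter coverage in both cell types. The exact p was 0.0556 in each of these, with an adjusted p of 0.161 in mES cells and 0.148 in HSPCs. The marks came from separate libraries and antibodies, so list length and mark cannot be told apart here.

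**Figure D5:**
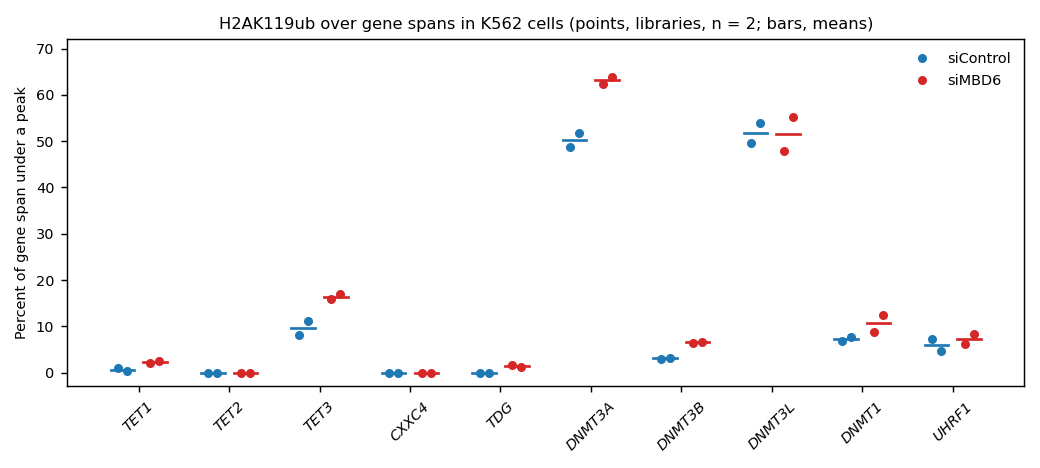
Percent of the gene span under an H2AK119ub peak in K562 cells for the 10 human genes; points are libraries (n = 2 a group), bars are means, blue is siControl and red is siMBD6. DNMT3A sits at 48.7% and 51.7% in siControl and 62.4% and 63.9% in siMBD6, and TET2 and CXXC4 at 0 in all 4 libraries.

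In K562 cells, DNMT3A and DNMT3L were the 2 most covered and TET2 and CXXC4 had no H2AK119ub peak at all. DNMT3A (chr2:25227855-25342590 in hg38, minus strand) was covered for 48.7% and 51.7% of its span after siControl and 62.4% and 63.9% after siMBD6. Its promoter gave the other order, with 51.4% in both siControl libraries and 48.9% and 47.7% after siMBD6, but over 2 kb on each side of the start it was higher after siMBD6 by 12.0 points. TET3 spans were at 8.13% and 11.2% against 15.8% and 17.0%, and DNMT3B at 2.97% and 3.20% against 6.36% and 6.64%. DNMT1 was at 6.92% and 7.67% against 8.84% and 12.4%, and TET1 at 0.880% and 0.373% against 2.01% and 2.47%. The protein-coding gene S1PR2 overlaps the DNMT1 span, so peaks in the shared part cannot be given to either gene alone. The TDG promoter held a peak after siMBD6 only, of 25% in both libraries, which is a single smallest peak; with peaks under 1 kb left out, neither group had one. UQCC6 starts in the same window and lies under the same peak, which cannot be given to either gene alone. DNMT3L spans were at 49.5% and 53.9% against 47.9% and 55.3%, which overlapped, as did UHRF1 at 7.15% and 4.67% against 6.19% and 8.41%.

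Span coverage was therefore higher after siMBD6 without overlap for 6 of 10 genes and lower for 0, against 34.6% and 1.28% of all protein-coding genes. Among the genes with a peak in any of these 4 lists, which leaves out TET2 and CXXC4, 53.0% were higher. Promoter coverage was higher for 1 and lower for 1, against 13.4% and 2.20%. The siMBD6 lists were longer, covering 178 and 190 Mb against 132 Mb in both siControl lists. The flanks of DNMT3A moved with it, from 5.41% and 5.26% to 8.11% and 8.67%, and those of TET3 from 10.6% and 10.8% to 15.0% and 16.3%. The part of this general gain in the values of single genes was not tested.

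Other genes of the pathway were read from a list of 24, 21 of them autosomal: readers of methylated DNA, cofactors and partners of oxidation, factors of maintenance and protection, and base excision repair. In mES cells H3K27me3 promoter coverage was lower in KO without overlap for 5 of the 21 and higher for 0, against 16% and 1.90% of all protein-coding genes. Mbd4, a mismatch glycosylase that also reads methyl-CpG, was at 31.5% and 37.9% in WT and 0% in both KO libraries. Smug1, a uracil glycosylase, was at 100% in WT and 75.0% and 67.2% in KO. Mbd3, a subunit of the NuRD complex, was at 73.6% and 32.1% against 25% in both KO libraries, and Mbd2 held a single smallest peak in WT and none in KO. For H2AK119ub in mES cells 1 of 21 was higher and 3 were lower, against 10.2% and 8.91% of all genes. Among the 3 was Dppa3, a protector of maternal methylation, at 100% in both WT libraries and 47.8% and 67.5% in KO.

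In HSPCs 3 of the 21 were higher and 4 lower in KO for H2AK119ub, against 18.8% and 5.05% of all genes. Hells, a chromatin remodeller needed for methylation, was at 45.5% and 46.0% in WT and 74.1% and 81.4% in KO, and Zbtb38, a methyl-CpG-binding zinc finger gene, at 11.8% and 11.4% against 50.3% and 39.0%. Zfp57, which guards imprints, was at 84.6% and 35.2% against 25% and 0%, and Parp1 at 100% in WT against 73.4% and 52.3%. For H3K27me3 2 of the 21 were higher in KO HSPCs and 0 lower, against 9.68% and 8.79% of all genes. Hells had no peak in WT and a smallest peak in both KO libraries. The X-linked gene Ogt, whose product binds TET proteins, had no H3K27me3 promoter peak in WT HSPCs and was covered for 100% and 53.5% in KO, beside the wider H3K27me3 coverage of the X chromosome in those libraries given above; its part in the Ogt values was not tested. In K562 cells 6 of the 21 were higher after siMBD6 and 0 lower, against 13.4% and 2.20% of all genes and 26.4% higher among genes with a promoter peak in any K562 list. WT1 was at 10.8% and 0% against 48.4% and 40.9%, UNG at 0% against 25% and 33.5%, and APEX1 at 0% against 38.8% and 25%.

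Likeness to other genes was read over 32 values (promoter and span coverage in 16 mouse libraries) as the mean absolute difference in percentage points, for genes whose mean promoter coverage was 10% to 90%, which left out Tet1. Tet2 was nearest to Gapvd1 (2.21 points) and Hace1 (2.32), and Tdg to Dgcr8 (3.74) and Srcap (3.79). Dnmt1 was nearest to Srgn (5.31) and Lman2l (5.62), Uhrf1 to Dctn2 (6.66) and Hyou1 (6.92), and Dnmt3l to Tnfrsf1b (6.75) and Akna (8.08). Dnmt3a was nearest to Cd5 (7.28) and Bin2 (8.38), Tet3 to Rab17 (7.88) and Spon2 (7.97), Dnmt3b to Fkbp5 (7.90) and Fam49a (8.34), and Cxxc4 to Wee2 (10.4) and Stc1 (10.6). For every one of these 9 genes both neighbours lay on another chromosome. The mean difference from all genes ran from 27.4 points for Tdg to 47.1 for Tet3, with Tet2 at 28.2. Nearest distances are therefore not on 1 scale across the 9 genes.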

How the data were processed

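H2AK119ub and H3K27me3 CUT&Tag was performed in 16 mouse and 4 human libraries, 2 in each of 10 groups taken from the sample labels. Before deposit, the authors used Trimmomatic 0.39 for trimming, bowtie2 2.4.1 for alignment to mm10 or hg38, and Picard to drop duplicates. Peaks were called by MACS2 in broad mode according to the methods, whereas the submitters' processing notes name HOMER 4.9. The deposited files give only peak positions as start and end coordinates, called for each library, with no score, signal or read count, so depth and its precision are unknown.

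Peaks on assembled chromosomes were merged, and the percent of covered bases was computed over each protein-coding gene span and over 1 kb on each side of its start (GENCODE vM21 for mouse and v44 for human) with Python 3.11.15, numpy 2.4.6 and pandas 2.3.3; figures used matplotlib 3.10.9. The scripts were tested on simulated peak lists. Groups of 2 were compared by whether their libraries overlapped, and 8 libraries by a two-sided exact permutation test that kept genotype fixed (for cell types and marks) or cell type fixed (for the pooled Tet2 comparison), with Benjamini-Hochberg adjustment over 21938 genes. The 10 genes, the pathway list and the marker lists were chosen with earlier results of these data known. The K562 marker list and a pathway gene are not reported here. All 10 genes are named. Pathway genes are named where groups did not overlap and means differed by at least 25 percentage points, and the 2 genes most like each of the 10 by smallest mean absolute difference. Promoter sequences are from RefSeq (GRCm38.p6), and all 10 mouse genes matched. The sequences shown, and the annotated starts described beside the gene start, were picked after the values were seen. Alternatives were a 2 kb promoter, peaks of at least 1 kb, joined peaks, equal list lengths, the best covered start, the span without its first 1 kb, single libraries left out and a replicate block.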

Additional observations from a re-analysis of the deposited data

How the results depend on the processing

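Of the values for single genes under alternatives other than leaving out a library, 196 kept their direction and their call, 28 kept the direction and lost the call, and 2 reversed; leaving out a library cannot make separate groups overlap, so its 272 values are no sign of stability. The reversals were Dnmt1 H2AK119ub promoter coverage in mES cells, 25 points higher in KO at the gene start and -10.7 points at the best covered start, a transcript start 7265 bases downstream, and DNMT3A promoter coverage in K562 cells, -3.12 points in 1 kb and 12.0 points in 2 kb on each side; the cause was not tested. Counts of the 10 genes with separate groups moved as follows. The shares of all genes under the same settings are not given here. A moved count therefore cannot be told apart from a move of genes at large. In HSPC H2AK119ub promoters 1 gene became 3 with 2 kb, 0 with joined peaks, 3 at the best covered start and 4 with the replicate block. In HSPC H3K27me3 promoters 0 became 2 with 2 kb and 1 at the best covered start, and over spans 5 became 0 with peaks of at least 1 kb. In K562 promoters 2 became 4 with 2 kb and 4 with the replicate block. Between the cell types, H2AK119ub promoters went from 2 to 4 with 2 kb, 0 with joined peaks and 4 at the best covered start, and H3K27me3 promoters from 5 to 3 with peaks of at least 1 kb. The pooled Tet2 comparison of promoters went from 0 to 1 for H2AK119ub at the best covered start and from 0 to 1 for H3K27me3 with 2 kb, and the comparison of marks in mES cells from 4 to 2 with peaks of at least 1 kb.

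Leaving out 1 library at a time makes separation easier by construction, since 1 library then stands against 2. Shares of all genes are not given beside these counts either, so they describe the 10 genes only. The counts for KO against WT then ran from 2 to 4 for mES H2AK119ub promoters and 6 to 9 for spans, 3 to 3 for mES H3K27me3 promoters and 4 to 5 for spans, 4 to 6 for HSPC H2AK119ub promoters and 6 to 10 for spans, and 1 to 3 for HSPC H3K27me3 promoters and 6 to 8 for spans. In K562 cells they ran from 3 to 6 for promoters and 6 to 8 for spans. Between cell types they ran from 2 to 3 for H2AK119ub and 5 to 6 for H3K27me3, for the pooled Tet2 comparison from 0 to 1 for both marks, and between marks from 7 to 9 in HSPCs and 4 to 4 in mES cells.

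The replicate numbers did not pair the samples: same-numbered libraries had deviations that correlated at 0.0305 and -0.135 in mES cells (H2AK119ub and H3K27me3), -0.00936 and 0.00894 in HSPCs and 0.0149 in K562 cells. No conclusion is therefore drawn from the counts with the replicate block. With the numbers crossed for mES H3K27me3, an alternative chosen after seeing the data, 3 genes differed in promoters and 5 in spans, with no share of all genes beside them. Peak positions without counts leave the depth of each list unknown.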
